A study of Rattus norvegicus with 6 samples.

Results

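The interferon regulatory factors (IRFs) are a family of transcription factors, and 8 of their genes were examined in the spinal cord of rats with bone cancer pain (BCP). The genes were Irf1, Irf2, Irf3, Irf4, Irf5, Irf7, Irf8 and Irf9, chosen by gene name from the 30957 rows of the deposited gene table, and all 8 had enough counts to be tested. The lumbar enlargement of the spinal cord on the side of the surgery, taken without meninges from female adult Wistar rats, was the source of the RNA, 14 days after surgery. In the BCP group (3 libraries) living Walker 256 cells, a breast carcinoma line of the rat, had been placed into the cavity of the left tibia, and in the sham group (3 libraries) the cells had been killed by heat, so that both groups shared the bone puncture and the injected cell material. The tumor lay in the bone, and the sequenced tissue was spinal cord at a distance from it. Markers of neurons and oligodendrocytes were abundant in all 6 libraries, with summed normalized counts of 10 neuronal genes between 6125 and 7240 CPM and of 8 oligodendrocyte genes between 27975 and 44274 CPM. CPM scales a count to the library's total of gene counts after TMM normalization, and the libraries held between 11779485 and 15004290 gene counts. The labels number the libraries within each group without saying more on their origin, so the p-values measure only the spread between these libraries.

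IRFs share an amino-terminal DNA-binding domain that reads repeats of the letters GAAA in the promoters of interferons and of the genes that interferons switch on. IRF1 and IRF2 bind the same sites, where IRF1 mostly activates and IRF2 mostly represses, and Irf1 is itself a classical early target of interferon-gamma. IRF3, IRF5 and IRF7 wait in the cytoplasm until kinases downstream of Toll-like receptors or of cytosolic nucleic acid sensors phosphorylate them, after which they switch on interferon and cytokine genes. IRF4 and IRF8 act in lymphoid and myeloid cells together with partners such as PU.1, encoded by Spi1, and IRF9 is the DNA-binding subunit of ISGF3, the complex that carries the type I interferon signal. In the spinal cord IRF8 and IRF5 are known as factors of microglia, the resident macrophages, and have been described there after injury of a peripheral nerve as a chain that leads to the purinergic receptor gene P2rx4.

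The sequences upstream of the genes are shown because the family is controlled by the same pathways that it serves. Promoters of 7 of the 8 genes were matched by symbol in RefSeq (assembly GRCr8), and the 250 bases before the start were searched on both strands for TTCNNNGAA, the gamma-activated site (GAS) of the interferon-gamma response, for GAAANNGAAA, the core of the interferon-stimulated response element (ISRE), and for GGAANNGAAA, the composite element of PU.1 with IRF4 or IRF8. The letters of the last 2 motifs can overlap. A GAS was present in 3 of the 7 (Irf1, Irf8 and Irf9), an ISRE core in 1 (Irf7) and the composite element in 0, whereas among all 33469 RefSeq promoters 7.67% held the GAS, 3.41% the ISRE core and 2.48% the composite element. The 4 promoters with a match are given from 5′ to 3′ on the strand of the gene, with the matched letters in capitals, from chr10:38417685-38417934 (plus strand) for Irf1, chr19:65699034-65699283 (plus strand) for Irf8, chr15:33065586-33065835 (plus strand) for Irf9 and chr1:205800024-205800273 (minus strand) for Irf7, all in GRCr8.
Irf1: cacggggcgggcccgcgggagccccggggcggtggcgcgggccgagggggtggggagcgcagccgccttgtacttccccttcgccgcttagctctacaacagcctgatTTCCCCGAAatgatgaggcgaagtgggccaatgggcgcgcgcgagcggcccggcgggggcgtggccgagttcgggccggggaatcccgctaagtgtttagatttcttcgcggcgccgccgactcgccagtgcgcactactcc
Irf8: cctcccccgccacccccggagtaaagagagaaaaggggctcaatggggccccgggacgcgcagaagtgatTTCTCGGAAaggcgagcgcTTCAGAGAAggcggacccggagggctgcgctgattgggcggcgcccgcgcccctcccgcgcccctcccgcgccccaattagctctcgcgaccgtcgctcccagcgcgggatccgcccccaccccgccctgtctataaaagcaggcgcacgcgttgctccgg
Irf9: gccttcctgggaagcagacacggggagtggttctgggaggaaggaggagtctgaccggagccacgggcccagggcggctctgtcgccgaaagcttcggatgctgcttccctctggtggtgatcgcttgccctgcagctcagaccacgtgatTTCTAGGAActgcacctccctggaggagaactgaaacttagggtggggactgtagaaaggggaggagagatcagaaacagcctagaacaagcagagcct
Irf7: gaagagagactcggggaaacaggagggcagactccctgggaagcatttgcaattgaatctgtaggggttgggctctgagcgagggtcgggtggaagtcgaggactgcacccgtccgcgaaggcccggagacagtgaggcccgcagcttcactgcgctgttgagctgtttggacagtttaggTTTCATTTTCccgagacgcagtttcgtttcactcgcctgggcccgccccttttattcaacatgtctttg
The GAS of Irf1 began 142 bases before the start, those of Irf8 at 180 and 161 bases and that of Irf9 at 99 bases, while the ISRE core of Irf7 began at 69 bases. A match describes the letters in this window and is not a measurement of binding.

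The first question was which of the family's genes differed between BCP and sham-operated rats. Irf1, Irf8 and Irf5 rose in BCP by 8.86-fold, 7.84-fold and 3.80-fold, Irf2 and Irf4 rose by less than 2-fold, and Irf3, Irf7 and Irf9 did not pass the test. With edgeR's quasi-likelihood test, 3 of 8 genes were up-regulated past both thresholds (Benjamini-Hochberg adjusted p under 0.05 and a fold change over 2), against 6.35% of the 14908 genes tested, and 0 of 8 were down-regulated, against 0.107%. By the adjusted p alone, 5 of 8 were higher, against 15.8% of all genes, and 0 of 8 lower, against 12.1%. At an unadjusted p under 0.05 the same 5 genes passed, all of them higher, and DESeq2 called 4 higher and 0 lower. In 7 of 8 genes every BCP library lay above every sham library, as in 21.7% of all genes. The median log2 fold change (log2FC) was 1.04 over the 8 genes and -0.014 over all genes tested, and the mean was higher in BCP for 8 of 8. The 8 genes lie on 7 chromosomes. In bulk tissue, more cells of a type cannot be told apart from more RNA per cell.

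**Figure D1:**
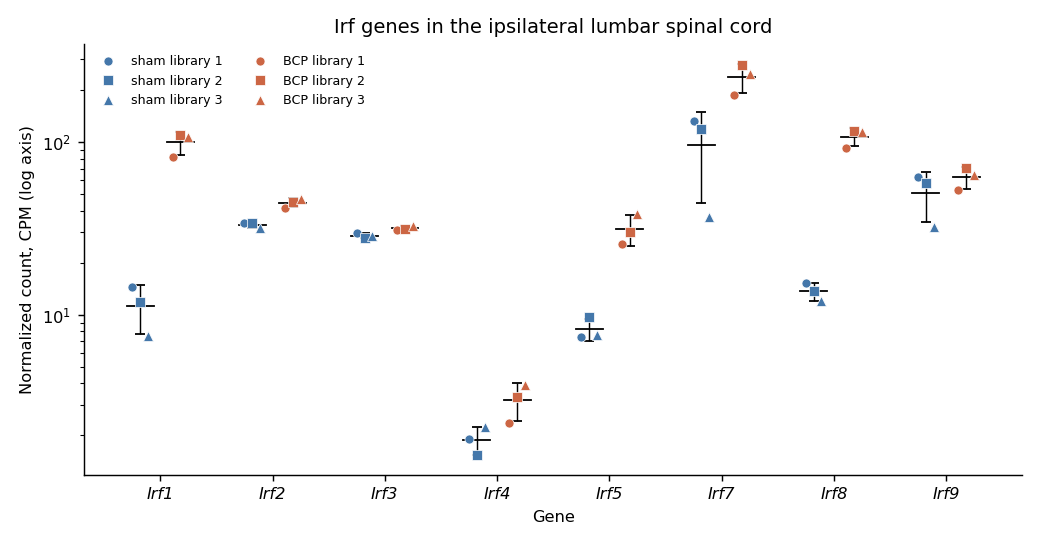
Normalized counts (CPM, log axis) of the 8 Irf genes in each of the 3 sham (blue) and 3 BCP (orange) libraries; the horizontal bar is the mean and the error bar 1 SD (n = 3). Irf1, Irf5 and Irf8 are separated by wide gaps, whereas the triangle of sham library 3 lies far below the other sham libraries for Irf7 and Irf9, and only Irf9 overlaps between the groups.

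Of the pair that answers interferon-gamma, Irf1 had the largest fold change of the 8 genes and Irf2 a small one. Irf1 (ENSRNOG00000008144, chr10:39109522-39116531, Rnor_6.0) had 14.5, 11.9 and 7.5 CPM in sham libraries 1, 2 and 3, and 81.7, 109.6 and 107 CPM in BCP libraries 1, 2 and 3. The groups were far apart, and sham library 3 was the lowest. Its log2FC was 3.15 ± 0.27 (SE, adjusted p = 0.00152), from 11.3 ± 3.53 CPM to 99.3 ± 15.3 CPM (SD, n = 3). Irf2 (ENSRNOG00000009824, chr16:48582026-48732932), the antagonist, had 33.9, 33.9 and 31.6 CPM in the sham and 41.4, 45.02 and 46.9 CPM in the BCP libraries. These groups were narrow and did not overlap, and the rise was small, with a log2FC of 0.43 ± 0.078 (SE, adjusted p = 0.000318). The counts of Irf1 for each count of Irf2 were 0.428, 0.351 and 0.237 in the sham group and 1.97, 2.43 and 2.27 in the BCP group. So Irf2 had the larger count in every sham library and Irf1 in every BCP library, a 6.75-fold shift of the ratio (exact permutation test, two-sided, p = 0.1, the smallest that 3 against 3 allows, and 0.114 adjusted over 8 ratios). Ratios of counts are not corrected for gene length, so a value of 1 does not mean equal numbers of transcripts, but the shift between groups needs no scaling between libraries.

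Of the factors of lymphoid and myeloid cells, Irf8 had the smallest p of the family. Irf8 (ENSRNOG00000017869, chr19:54314865-54336640) had 15.3, 13.6 and 12.03 CPM in the sham group and 92.1, 115 and 114 CPM in the BCP group. Both groups were tight, with an SD of 12.1% and 11.96% of the mean, and the log2FC was 2.97 ± 0.104 (SE, adjusted p = 3.62e-11). Irf4 (ENSRNOG00000061070, chr17:34886739-34905117), which directs activated lymphocytes and plasma cells, was the scarcest member with 25, 22 and 33 counts in the sham group and 28, 47 and 52 counts in the BCP group. Scaled to the library these are 1.91, 1.54 and 2.23 CPM against 2.37, 3.36 and 3.94 CPM, so that the highest sham and the lowest BCP library almost met. Its log2FC was 0.77 ± 0.27 (SE, adjusted p = 0.0397), and this call was lost without sham library 1 (adjusted p = 0.0781), without sham library 2 (0.154), without BCP library 2 (0.108) and without BCP library 3 (0.191).

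Among the factors that are switched on by phosphorylation, Irf5 rose, Irf3 moved little and Irf7 was high but variable. Irf5 (ENSRNOG00000007437, chr4:56805132-56820543), which carries signals of the endosomal Toll-like receptors in myeloid cells, had 7.40, 9.64 and 7.64 CPM in the sham and 25.5, 30.2 and 38.0 CPM in the BCP libraries. The lowest BCP library was well above the highest sham library, and the log2FC was 1.92 ± 0.152 (SE, adjusted p = 3.73e-07). Irf3 (ENSRNOG00000043388, chr1:100992405-100997198), made in most cells and controlled after translation, had 29.6, 27.7 and 28.7 CPM in the sham and 30.7, 31.4 and 32.5 CPM in the BCP libraries. The order of the libraries separated the groups, but by a narrow margin, and the log2FC of 0.14 ± 0.082 (SE) did not pass the test (adjusted p = 0.234). Irf7 (ENSRNOG00000017414, chr1:214248837-214252456), the member that interferon itself raises and that amplifies the type I response, had 132, 119 and 36.7 CPM in the sham and 187, 278 and 247 CPM in the BCP libraries. All BCP libraries were above all sham libraries, yet sham library 3 lay far below the other sham libraries, and the log2FC of 1.31 ± 0.543 (SE) did not pass (adjusted p = 0.174). Without sham library 3 the log2FC of Irf7 was 0.92 (adjusted p = 0.0784).

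Irf9 (ENSRNOG00000019478, chr15:34282936-34288138), the DNA-binding subunit of ISGF3, was the only member whose groups overlapped. It had 62.8, 57.5 and 32.2 CPM in the sham and 52.7, 70.2 and 64.5 CPM in the BCP libraries, so that BCP library 1 lay below 2 of the 3 sham libraries. The log2FC was 0.30 ± 0.305 (SE, adjusted p = 0.554), and 0.058 without sham library 3. Its partner Stat2 had a log2FC of 1.14 ± 0.30 (SE) with groups that did not overlap, and did not pass the test (adjusted p = 0.0597).

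**Figure D2:**
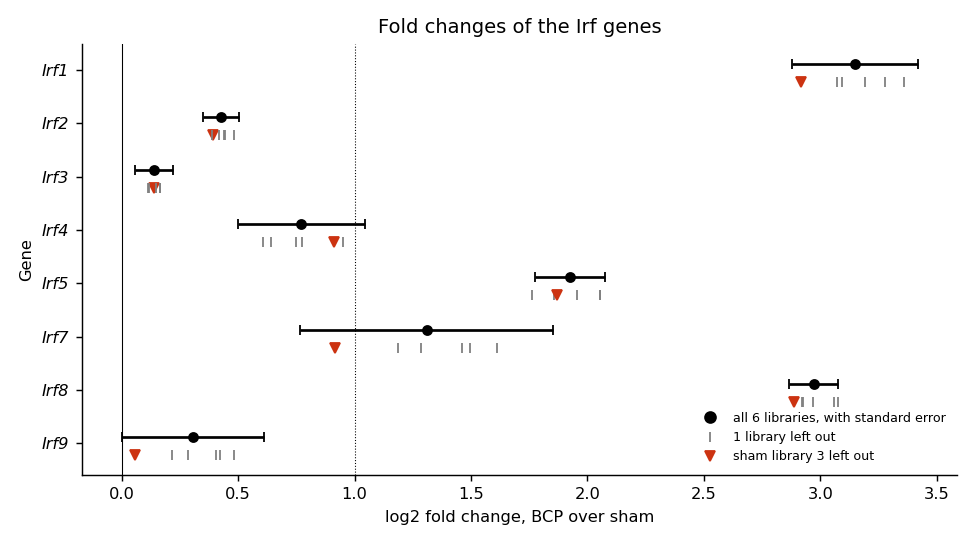
Log2 fold change (BCP over sham) of each Irf gene with all 6 libraries (black point, bar 1 SE) and with 1 library left out at a time (grey ticks; red triangle, sham library 3 left out); the dotted line marks a 2-fold change. Irf1, Irf5 and Irf8 stay to the right of the dotted line in every case, while Irf7 moves from 1.31 to 0.92 and Irf9 from 0.30 to 0.058 when sham library 3 is left out.

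Levels of different genes were compared per length, with the deposited FPKM (fragments scaled to transcript length and library size). In the sham libraries the order was Irf7 with 48.0 ± 25.8, Irf9 with 31.3 ± 10.03, Irf3 with 19.5 ± 0.589, Irf2 with 8.83 ± 0.338, Irf1 with 5.43 ± 1.69, Irf8 with 4.72 ± 0.556, Irf5 with 3.18 ± 0.486 and Irf4 with 0.217 ± 0.0397 FPKM (SD, n = 3). Neighbours in this order whose libraries overlapped were Irf7 and Irf9, Irf9 and Irf3, and Irf1 and Irf8. In the BCP libraries Irf7 was still first with 122 ± 24.4 FPKM, but Irf1 with 49.2 ± 7.93 FPKM stood second, ahead of Irf9 with 39.6 ± 5.94, Irf8 with 38.0 ± 4.81, Irf3 with 22.1 ± 0.790, Irf5 with 12.4 ± 2.59, Irf2 with 12.2 ± 0.850 and Irf4 with 0.381 ± 0.0963 FPKM (SD, n = 3). Here the libraries of Irf1 and Irf9, of Irf9 and Irf8, and of Irf5 and Irf2 overlapped. Against the genes tested, Irf1 moved from a level above 35.3% of them in the sham group to one above 90.4% in BCP, and Irf8 from 32.1% to 86.5%.

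The summed FPKM of the 8 genes was 149, 138 and 77.2 in the sham group and 243.9, 330.3 and 314 in the BCP group. As a share of this sum Irf1 had 4.67%, 4.17% and 4.68% in the sham group and 16.4%, 16.5% and 16.9% in the BCP group, and Irf8 went from 4.12% ± 1.10 to 12.9% ± 0.456 (SD, n = 3). Irf9 moved the other way, from 25.9%, 25.8% and 25.7% to 13.6%, 13.5% and 13.1%, although its own level did not differ beyond the spread. The share of Irf9 was almost the same in all libraries of a group, sham library 3 included, in which the levels of Irf9 and of the whole family were both low. Irf7 took the largest share in every library but sham library 3, with 44.3%, 43.4% and 23.8% in the sham and 39.1%, 43.4% and 40.6% in the BCP libraries. In sham library 3 Irf3 and Irf9 had larger shares, with 25.4% and 25.7%.

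**Figure D3:**
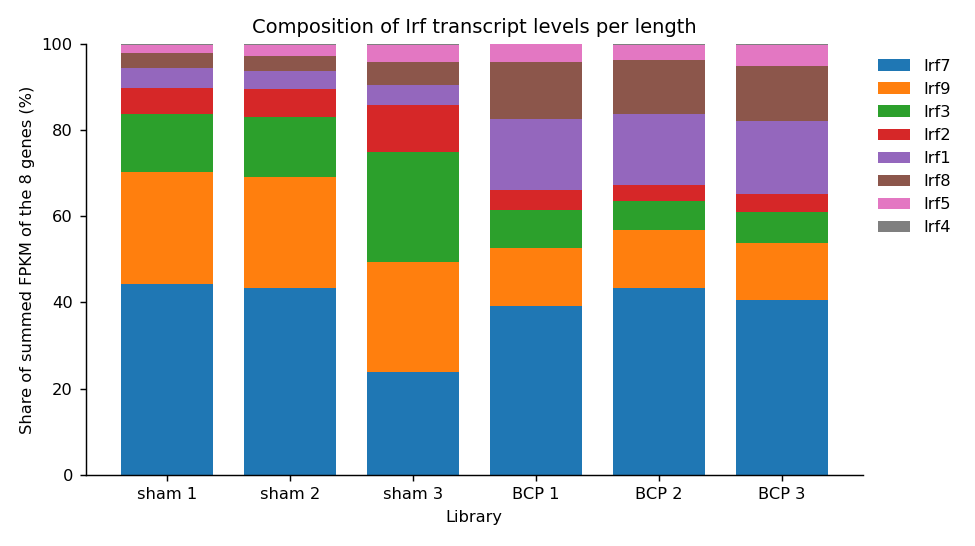
Share (%) of each Irf gene in the summed FPKM of the 8 genes, 1 stacked bar per library. Irf1 and Irf8 widen from sham to BCP, Irf9 narrows from 25.8% ± 0.092 to 13.4% ± 0.251 (SD, n = 3), and sham library 3 has the smallest share of Irf7.

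Ratios within a library were used to compare members with each other and with Spi1, whose product PU.1 binds DNA together with IRF8. Counts of Irf8 for each count of Spi1 were 2.01, 2.03 and 2.12 in the sham and 2.79, 3.33 and 2.90 in the BCP libraries, so Irf8 gained 1.46-fold over Spi1. Irf5 lost against Spi1, with 0.970, 1.44 and 1.35 in the sham and 0.772, 0.876 and 0.969 in the BCP libraries, 0.704 times the sham ratio, and the nearest libraries of the groups almost touched. Irf8 for each count of Irf5 went from 2.07, 1.41 and 1.58 to 3.61, 3.81 and 2.99, a 2.07-fold shift. Against the summed counts of the microglia markers Irf8 gained 3.02-fold and Irf5 1.46-fold. With FPKM in place of counts the log2 difference of Irf5 to these markers was 0.26 in place of 0.55, and the groups overlapped (exact permutation test, two-sided, p = 0.3). Irf7 for each count of Irf3 was 4.48, 4.31 and 1.28 in the sham and 6.11, 8.87 and 7.59 in the BCP libraries, a 2.55-fold shift. Its log2 difference was 1.35 with all libraries and 0.76 without sham library 3. In counts, each of these 6 ratios had groups that did not overlap, and so the smallest p that an exact permutation test of 3 against 3 allows (two-sided p = 0.1, adjusted 0.114). Irf9 for each count of Irf3 overlapped between the groups, with a log2 difference of 0.21 (exact permutation test, two-sided, p = 0.7) and of -0.093 without sham library 3.

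Sham library 3 stood apart from the other sham libraries for part of the family and its targets, which was noticed after the values had been seen. On the log2 CPM scale it lay below the mean of sham libraries 1 and 2 by a difference of -1.77 for Irf7, -0.90 for Irf9, -0.79 for Irf1 and -0.88 for Stat2. The difference was -0.26 for Irf8, -0.14 for Irf5, -0.098 for Irf2, 0.0022 for Irf3 and 0.35 for Irf4. It was the lowest sham library for 23 of 24 genes induced through ISGF3 (median difference -1.44), for 16 of 17 genes induced through IRF1 (-0.74) and for 7 of 8 proliferation genes (-1.15), against 35.8% of all genes tested (median -0.0096). The part of this library in the results of Irf7 and Irf9 is given by the values without it.

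Targets of ISGF3, the complex that IRF9 guides to DNA, were read as a list of 24 antiviral genes. This list and those that follow were chosen with earlier results of these data known. Their counts beside those of all genes are therefore a description only. The list had a median log2FC of 1.22. Past both thresholds, 4 of its 24 genes were up-regulated, against 6.35% of all genes tested, and 0 were lower. These were Cxcl10, a chemokine that attracts T cells (3.28 ± 0.731), the oligoadenylate synthetase gene Oas3 (3.24 ± 0.284), Ifi44l (1.43 ± 0.280) and Bst2, a tether of viral particles (1.28 ± 0.25; log2FC ± SE). For 18 of the 24 the BCP libraries were all above the sham libraries, as for 21.7% of all genes tested. Names familiar as interferon markers were among those that did not pass, such as Mx1 with 2.36 ± 0.686 (adjusted p = 0.0776), Isg15 with 1.09 ± 0.570 (0.265) and Rsad2 with 1.92 ± 0.638 (0.108). Ifit1 was listed with 7, 482 and 20 counts in the sham libraries, the widest spread of the list. The summed CPM of the list was 1999, 1635 and 647 in the sham and 2875, 4211 and 2974 in the BCP libraries. Without sham library 3 the list had 7 genes past both thresholds, 10 higher by the adjusted p and a median log2FC of 0.87. Without BCP library 2 or BCP library 3 it had 2 past both thresholds in each case.

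Most genes induced through IRF1 rose in BCP. The median log2FC of 17 tested rows was 1.96, and in 17 of 17 every BCP library lay above every sham library, as in 21.7% of all genes. Of the 17 rows, 13 were up-regulated past both thresholds, against 6.35% of all genes tested, and 0 were lower. They comprised the class II transactivator Ciita, with 3, 2 and 1 counts in the sham and 448, 750 and 662 counts in the BCP libraries, and its class I counterpart Nlrc5 (2.66 ± 0.383). They also held parts of the machinery that loads peptides on MHC class I, namely Tap1 (2.20 ± 0.411), the immunoproteasome subunits Psmb9 (2.56 ± 0.253), Psmb8 (2.12 ± 0.355) and Psmb10 (1.79 ± 0.239) and B2m, the light chain of class I (2.05 ± 0.164; log2FC ± SE). Tap2 was listed in 2 rows, both past the thresholds, and reads may be split between them. Casp1, which matures interleukin-1, had 1.96 ± 0.162, and the JAK inhibitor Socs1 2.88 ± 0.491. The guanylate-binding protein genes Gbp2 (2.49 ± 0.721, adjusted p = 0.0768), Gbp5 (1.94 ± 0.679, 0.122) and Gbp4 (0.81 ± 0.404, 0.236) and the checkpoint ligand gene Cd274 (1.10 ± 0.287, 0.0515) did not pass. Il12b, encoding a subunit of interleukin-12 and too low to be tested, had 0 counts in each sham library and 15, 8 and 10 in the BCP libraries.

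**Figure D4:**
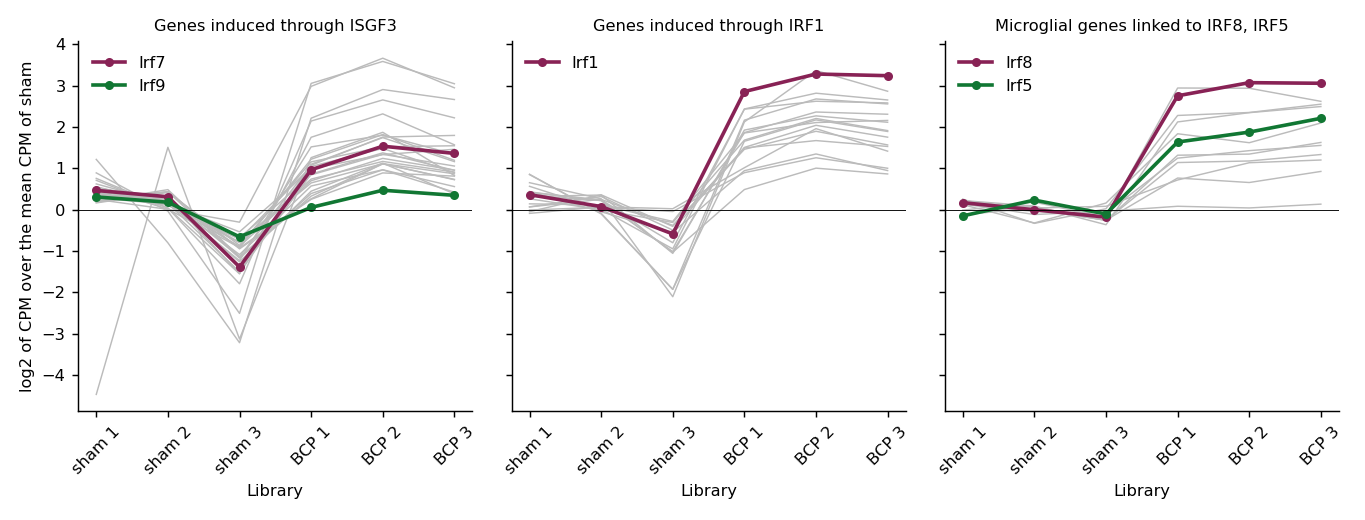
Log2 of each gene's CPM over its mean in the sham libraries, by library, for genes induced through ISGF3 (24 grey lines), through IRF1 (16 grey lines, Ciita not drawn because it lies above the axis) and for microglial genes linked to IRF8 and IRF5 (10 grey lines), with the Irf genes in color. Sham library 3 dips in the first panel together with Irf7 and Irf9 and less in the second, and in the third the sham libraries lie close together while Irf8 and Irf5 climb in BCP.

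Microglial genes described downstream of IRF8 and IRF5 rose in 8 of 10 cases past both thresholds, with 9 of 10 by the adjusted p, 0 lower and a median log2FC of 1.43. Over all genes tested, 6.35% rose past both thresholds and 15.8% by the adjusted p. P2rx4, the purinergic receptor gene at the end of that chain, had 19.4, 21.7 and 22.3 CPM in the sham and 34.7, 46.3 and 48.5 CPM in the BCP libraries, a log2FC of 1.03 ± 0.115 (SE, adjusted p = 5.36e-06) that lay just past the fold threshold. Larger changes were seen for Il1b, the gene of interleukin-1 beta (2.80 ± 0.391), the microglial marker Aif1 (2.40 ± 0.122), Cybb, the catalytic subunit of NADPH oxidase (2.33 ± 0.163) and the Toll-like receptor gene Tlr2 (1.86 ± 0.175). The homeostatic receptor gene P2ry12 rose by 0.79 ± 0.121, and Cst3 had 0.084 ± 0.0585 and did not pass (adjusted p = 0.329; log2FC ± SE).

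Several DNA-binding partners of IRF4 and IRF8, factors of blood cells and microglia, rose as well. Of 8 tested partners 4 were up-regulated past both thresholds and 7 by the adjusted p, against 6.35% and 15.8% of all genes tested. None was lower, and the median log2FC was 1.61. Spi1 had 7.63, 6.70 and 5.68 CPM in the sham and 33.1, 34.4 and 39.2 CPM in the BCP libraries, a log2FC of 2.42 ± 0.118 (SE, adjusted p = 6.91e-12). Ikzf1, the lymphoid factor Ikaros, had 2.49 ± 0.167 and Batf2 3.13 ± 0.287 (log2FC ± SE). Batf, a partner of IRF4 in activated T cells, had 1, 2 and 0 counts in the sham and 16, 28 and 23 counts in the BCP libraries. Stat3 (0.80 ± 0.060), Runx1 (0.52 ± 0.159) and Tcf3 (0.28 ± 0.093) rose by less than 2-fold, and Nfatc2 had -0.082 ± 0.086 and did not pass (log2FC ± SE).

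Upstream of IRF3, IRF5 and IRF7, genes of endosomal receptors and of cytosolic DNA sensing were among those that rose past both thresholds. None of the 5 kinase genes did. Of all genes tested, 6.35% were up-regulated past both thresholds, and 15.8% were higher and 12.1% lower by the adjusted p. Of 23 tested sensors, adaptors and kinases 11 were up-regulated past both thresholds, 15 were higher and 1 lower by the adjusted p, and the median log2FC was 1.04. The receptors of nucleic acids in endosomes were among them, with Tlr8 at 3.32 ± 0.320, Tlr7 at 2.59 ± 0.202, Tlr9 at 2.39 ± 0.168 and Tlr3 at 1.49 ± 0.135, together with their chaperone Unc93b1 at 2.09 ± 0.112 and the adaptor Myd88 at 1.66 ± 0.144. So were the nucleic acid sensor gene Zbp1 (3.61 ± 0.364), Mb21d1, encoding the sensor of cytosolic DNA cGAS (2.14 ± 0.347), and Tmem173, encoding STING (2.51 ± 0.172). Tlr4 (1.57 ± 0.137) and the adaptor gene Ticam2 (1.58 ± 0.259; log2FC ± SE) were past both thresholds as well. Of the kinase genes, Irak4 was at 0.72 ± 0.160 (adjusted p = 0.00186), Tbk1 at 0.35 ± 0.070 (adjusted p = 0.000621), Ikbkb at 0.26 ± 0.084 (0.0247), Ikbke at 0.31 ± 0.12 (0.0587) and Irak1 at -0.0068 ± 0.049 (0.939). The helicases that sense cytosolic RNA did not pass, with Ifih1 at 1.04 ± 0.396 (adjusted p = 0.145) and Ddx58 at 0.80 ± 0.367 (0.211), and neither did their adaptor Mavs at -0.058 ± 0.102 (0.726). Traf3 fell by 0.18 on the log2 scale (SE 0.061, adjusted p = 0.034).

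Interferon receptors and their kinases rose in small steps. Of the 10 genes in this list, 7 were higher by the adjusted p, against 15.8% of all genes tested, and 0 lower, with a median log2FC of 0.66. Past both thresholds there was 1, the lambda receptor gene Ifnlr1 (1.48 ± 0.339), against 6.35% of all genes tested. Without sham library 2 or BCP library 3 the count was 0, and without BCP library 1 it was 2. Both chains of the interferon-gamma receptor rose, Ifngr2 by 0.96 ± 0.076 and Ifngr1 by 0.64 ± 0.089, and so did Jak2, which serves that receptor (0.69 ± 0.079). Of the type I receptor, Ifnar1 rose by 0.17 ± 0.052 and Ifnar2 had 0.27 ± 0.122 and did not pass (adjusted p = 0.111; log2FC ± SE). The corepressors and ubiquitin ligases that restrain IRFs held 0 of 8 genes past both thresholds, with 2 higher (Irf2bpl and Peli1) and 1 lower (Irf2bp1) by the adjusted p and a median log2FC of 0.20. Over all genes tested, 12.1% were lower by the adjusted p. Trim21, which had 1.28 ± 0.342 in this list, did not pass (adjusted p = 0.0623).

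**Figure D5:**
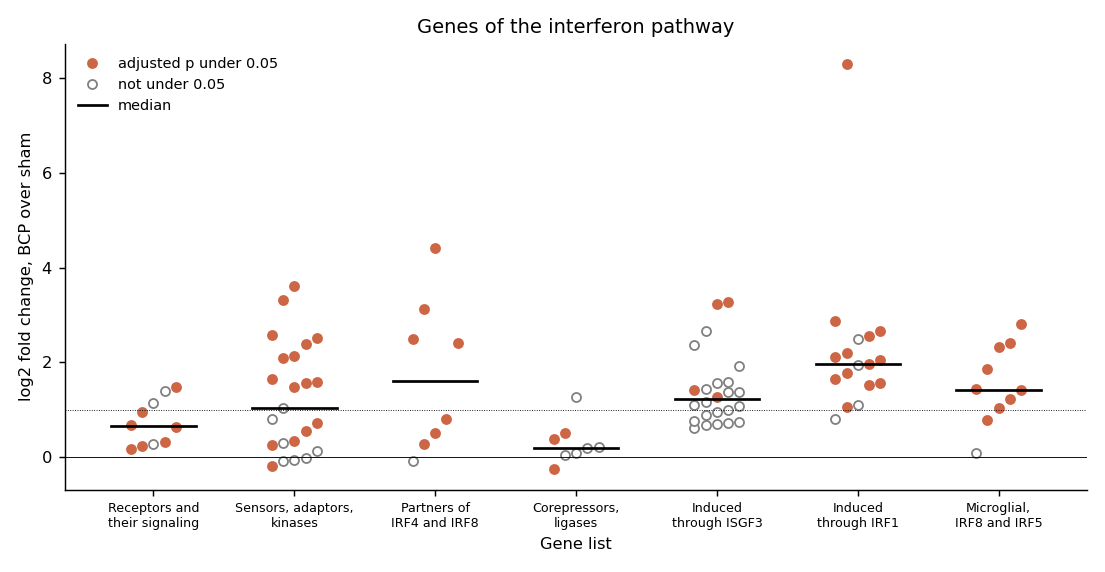
Log2 fold change (BCP over sham) of each tested gene in 7 lists of the interferon pathway; filled points have an adjusted p under 0.05, open points do not, the bar is the median of the list and the dotted line a 2-fold change. The median is 1.22 for genes induced through ISGF3, most of which are open points, and 1.96 for genes induced through IRF1, most of which are filled. Without sham library 3 (not drawn), 10 of 24 genes induced through ISGF3 and 15 of 17 induced through IRF1 had an adjusted p under 0.05.

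Of the interferon genes, Ifng, encoding interferon-gamma, was the only one of 9 found in the table with enough counts to be tested. It had 0 counts in each sham library and 1.52, 1.79 and 1.36 CPM in the BCP libraries (61 counts in all), at least 21.9-fold higher if the sham group is set at a floor of 3 counts over its libraries (counting error only). The other 8 interferon rows, those of the alpha, beta, epsilon, kappa and lambda genes found, had 11 counts in all sham libraries and 13 in all BCP libraries together, with at most 3 in a library, so a difference between the groups was not detectable at this depth.

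Among cells that use IRF4, IRF5 and IRF8, all tested T cell markers and most tested microglia markers were higher in BCP by the adjusted p. Over all genes tested, 6.35% were higher past both thresholds, and 15.8% were higher and 12.1% lower by the adjusted p. All 11 tested T cell markers were up-regulated past both thresholds, from a summed 9.12 to 10.3 CPM in the sham libraries to 67.0 to 78.0 CPM in the BCP libraries, and Cd3e had 0, 0 and 1 counts in the sham and 56, 104 and 111 counts in the BCP libraries. Cd4 was the largest part of these sums, with a mean of 5.09 CPM in the sham and 21.9 CPM in the BCP group. Which cells carried Cd4 was not tested. Of 15 tested microglia markers, 4 of which also stand in the list of genes downstream of IRF8 and IRF5, 8 were past both thresholds and 10 passed by the adjusted p, and their summed CPM was 425 to 531 in the sham and 1158 to 1401 in the BCP libraries. Siglech was at 0 in all libraries, and Tmem119 (log2FC 0.19 ± 0.26, SE) did not pass. Of 9 tested monocyte and macrophage markers 3 were past both thresholds (Plac8, Itgal and S100a4), and the median log2FC of the 9 was 0.12. Their summed CPM was 225 to 239 in the sham and 463 to 555 in the BCP libraries. Itgal (mean 10.6 to 154 CPM) and Plac8 (3.13 to 99.0 CPM) made up most of this rise, and Mrc1, Cd163, Lyve1, F13a1, Vcan and Arg1 did not pass. Of 6 tested dendritic cell markers 2 were past both thresholds, Itgax and Bst2, which also stands in the ISGF3 list. The median log2FC of the 6 was 0.13, with summed CPM of 202 to 221 and 259 to 280. Of 3 tested neutrophil markers 2 were past both thresholds, with summed CPM of 8.72 to 12.9 in the sham and 35.5 to 37.8 in the BCP libraries. The B cell markers Ms4a1, Cd79a, Cd79b and Pax5 had at most 8 counts in any library, and 3 markers of the B and plasma cell list were tested (Sdc1, Prdm1 and Xbp1), with summed CPM of 42.7 to 44.4 and 66.9 to 71.2. All 8 oligodendrocyte markers were lower by the adjusted p (median log2FC -0.39), as were 4 of 10 neuronal markers, and 7 of 8 proliferation markers were past both thresholds. The part of cell numbers in the changes of Irf1, Irf5 and Irf8 was not tested.

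The genes whose profile over the 6 libraries was most like that of a member were found by the Euclidean distance between centred log2 CPM values, as a description. For Irf8 they were Arhgap30 (distance 0.119), Ptpn6, the phosphatase SHP-1 of blood cells (0.192), and Rasal3 (0.248). For Irf1 they were Samsn1 (0.248), Siglec1, a sialic acid receptor of macrophages (0.274), and Btk, a kinase of B and myeloid cells (0.281). For Irf5 they were Trim55 (0.246), Arl11 (0.254) and Depdc1 (0.266).

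The genes beside the members moved by less than 2-fold. Of 16 nearest tested genes that flank the 8 members, 0 were past both thresholds, 2 were higher by the adjusted p (among them Rad50 beside Irf1) and 4 lower (Enpp6, Scaf1, Cox4i1 and Jph3). Of all genes tested, 6.35% were higher and 0.107% lower past both thresholds, and 15.8% were higher and 12.1% lower by the adjusted p. With 16 genes, these counts do not set the neighbours apart from other genes. Beside Irf1, Rad50 had 0.31 ± 0.066 and the carnitine transporter gene Slc22a5 0.11 ± 0.114 (adjusted p = 0.526), and beside Irf8, Cox4i1 had -0.22 ± 0.047 and Jph3 -0.34 ± 0.050 (log2FC ± SE). In 3 cases a neighbour overlapped the member, Bcl2l12 with Irf3 over 865 bases, Tnpo3 with Irf5 over 521 bases and Phrf1 with Irf7 over 65 bases, and reads from these stretches may be assigned to either gene because the use of strand in counting is not given in the sources used here. None of these 3 neighbours passed the test, with a log2FC of 0.44 ± 0.261 (adjusted p = 0.240), 0.013 ± 0.055 (0.896) and 0.088 ± 0.057 (0.279).

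Within 10 kb of the members the lncRNA table held 14 transcripts, of which 4 were tested and 1 was higher in BCP by the adjusted p, against 1.57% of the 12157 lncRNAs tested. It was NONRATT005426.2 (chr10:39123134-39124364, Rnor_6.0), 6603 bases from Irf1, with 12, 10 and 14 counts in the sham and 37, 44 and 30 counts in the BCP libraries. Its groups were well apart, with a log2FC of 1.76 ± 0.283 (SE, adjusted p = 0.0211), but the call was lost whenever any 1 of the 6 libraries was left out. NONRATT004265.2, which lies within Irf1, was too low to be tested, with 3, 3 and 2 counts in the sham and 14, 14 and 5 counts in the BCP libraries, and its reads cannot be told apart from those of Irf1. The tested transcripts at Irf3, NONRATT000684.2 and NONRATT000689.2, had a log2FC of -0.046 ± 0.381 and -0.087 ± 0.299 (SE), and NONRATT010443.2, 185 bases from Irf9, 0.076 ± 0.290 (SE), so that none of these 3 passed.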

How the data were processed

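Strand-specific, ribosomal RNA-depleted libraries of 6 rat spinal cord samples (3 sham, 3 BCP) were grouped by the sample labels. According to the methods and labels, the authors cleaned reads (Seqtk), aligned them with HISAT2 2.0.4 to Rnor_6.0 and computed FPKM with StringTie 1.3.0. They deposited unnormalized counts and FPKM values for each gene and each lncRNA transcript. Which program counted the reads, and whether it used strand, is not given in the sources used here. FPKM values, as deposited by the authors, served to compare levels between genes, for the summed level of the family and each gene's share of it, and as an alternative for the ratios.

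The test on counts was that of edgeR 4.0.16, run in R 4.3.3 (filterByExpr, TMM, robust quasi-likelihood fit on condition, Benjamini-Hochberg over all rows tested). The SE of a log2FC was computed from the F statistic and is approximate. The filter left 14908 of 30957 genes and 12157 of 22783 lncRNAs, and the rows it removed included 5737 genes and 10626 lncRNAs with counts. The gene table had TMM factors of 0.982 to 1.02. The biological coefficient of variation was 7.72% for genes and 33.4% for lncRNAs. Each pair of libraries of a group differed by more than counting noise (chi-square per degree of freedom 3.60 to 6.30). Ratios within a library were tested with exact permutation tests in SciPy 1.17.1. The code was tested on simulated data. Counts cover counting error only.

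The members and gene lists were chosen with earlier results of these data known. Named genes are the members, genes of the lists, the nearest tested gene on each side of a member and any that overlaps it, and the 3 tested genes nearest in profile to each member past both thresholds. Some genes that this rule names are not reported here. Alternatives were DESeq2 1.42.0, its size factors, library size only, upper quartile, no filter, at least 10 counts in every library, edgeR's exact test, a test against a fold change of 2, a replicate block, a wider distance for lncRNAs, ratios of FPKM and each library left out. Promoters came from RefSeq (GRCr8), whose coordinates differ from those of Rnor_6.0 and were not converted. Annotation columns of the tables were not tested.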

Additional observations from a re-analysis of the deposited data

How the results depend on the processing

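Irf1, Irf5 and Irf8 were up-regulated past both thresholds under all 15 alternatives, with log2FC of 2.92 to 3.36, 1.76 to 2.05 and 2.89 to 3.07, and 8 of 8 genes had a positive log2FC under each of them. Irf2 passed by the adjusted p in 14 of 15 (not in the test against a fold change of 2) and Irf4 in 9 of 15 (adjusted p = 0.142 with DESeq2). Irf7 passed in 1, edgeR's exact test (adjusted p = 0.000958), and Irf3 and Irf9 in 0. For all genes, the test against a fold change of 2 gave 548 higher (946 otherwise) and 0 lower (16 otherwise), DESeq2 gave 10 lower, no filter on low counts 37 and at least 10 counts in every library 6, where fewer or more rows were tested, and leaving out 1 library gave 16 to 33 lower. Of genes induced through ISGF3 DESeq2 called 11 past both thresholds. The causes of these differences between tests were not tested.

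The replicate numbers did not pair the libraries (correlations of the deviations of same-numbered libraries -0.105, 0.0439 and -0.0353). With the replicate number as a block, 907 genes were higher and 16 lower, 3 of 8 Irf genes were past both thresholds (Irf1 with an adjusted p of 0.0335), 2 genes induced through ISGF3 were past both, and 0 lncRNAs near the Irf genes were called.

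Of the lncRNAs within 10 kb of the Irf genes 1 was called, and 0 to 0 when 1 library was left out. Within 100 kb 2 of 17 tested were called, with no library left out. The log2 difference of Irf9 to Irf3 was -0.0927 without sham replicate 3, and ranged from -0.0927 to 0.366 over the libraries left out. No other ratio changed direction under the alternatives run, but that of Irf5 to the microglia markers fell to a log2 difference of 0.259 with FPKM (exact permutation test, p = 0.3). The spread of 33.4% between lncRNA libraries limits what can be detected there, and for the scarcest member, Irf4, it is the 22 to 52 counts per library.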

Other observations

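Values of the members relative to the genes induced through ISGF3 were computed after the data had been seen and are given with no test. For every 1000 counts on the 24 genes of that list, Irf7 had 66.3, 72.9 and 56.7 counts in the sham and 65.2, 66.1 and 82.9 counts in the BCP libraries, so that the groups overlapped and sham library 3, in which both Irf7 and the list were low, lay near the others. Irf9 had 31.4, 35.2 and 49.7 counts in the sham and 18.3, 16.7 and 21.7 counts in the BCP libraries on the same scale, lower in every BCP library. Irf1 had 7.25, 7.26 and 11.6 counts in the sham and 28.4, 26.0 and 35.9 counts in the BCP libraries, higher in every BCP library, and Irf8 had 7.67, 8.33 and 18.6 against 32.0, 27.3 and 38.2 counts. For Irf5, with 3.70, 5.89 and 11.8 against 8.88, 7.16 and 12.8 counts, the groups overlapped on this scale, although its CPM did not.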
